A study of Mus musculus with 6 samples.

Results

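The genes described here are those that carry lipopolysaccharide (LPS) to Toll-like receptor 4 and pass its signal on, together with the enzyme that takes LPS apart. There are 10 of them: the co-receptors and carriers Cd14, Ly96 and Lbp, the adaptors Tirap, Myd88, Ticam1 and Ticam2, the deacylase Aoah, and the receptor Cd180 with its partner Ly86. They were chosen by name, as rows of the deposited value table annotated with exactly 1 gene symbol, and each of the 10 had exactly 1 such row, among 22180 genes with a row of that kind. The data came from BV-2 cells, a mouse microglial line transformed by a retrovirus with the raf and myc oncogenes, a cell line and not primary microglia. Control cells, labelled as resting, were set against cells given LPS of Escherichia coli O111:B4 at 1 µg/mL with a labelled time of 24 h, on 3 whole-transcript arrays per group. Both groups were plated in the same low-serum medium per the labels' protocols. The labels do not say whether the 3 replicates were separate cultures, so the p-values reflect how far these arrays differ from each other, and that spread may be only technical.

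LPS in body fluid is picked up by LPS-binding protein, the product of Lbp, and handed to CD14 on the cell surface. CD14 passes it to the complex of Toll-like receptor 4 and MD2, the product of Ly96, which holds the lipid A part of the molecule. The receptor then recruits adaptors through TIR domains: TIRAP brings MyD88 to the membrane for the early NF-kappaB signal, and the product of Ticam2 (TRAM) brings TRIF, the product of Ticam1, for the interferon branch from endosomes. Acyloxyacyl hydrolase, the product of Aoah, removes secondary acyl chains from lipid A and so inactivates LPS. CD180 (RP105), which lacks a TIR domain, and its partner MD1, the product of Ly86, resemble the pair of Toll-like receptor 4 and MD2.

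Values are log2 expression values per row, so a difference of 1 is a 2-fold difference. Levels of different genes come from different probes and are not set against each other. Array medians lay between 2.88 and 2.97 and upper quartiles between 4.85 and 5.27. As a guide to background, chemosensory receptor rows (olfactory, vomeronasal and taste) had a 95th percentile of 3.08, the dim limit used below. All 10 markers of macrophages and microglia were above that limit, and so were 0 of the 4 B cell markers with a row, 0 of 5 astrocyte markers and 0 of 4 hepatocyte markers. The faintest macrophage and microglia markers, Cx3cr1 (3.75 in controls, 3.64 after LPS) and Aif1 (3.91 and 4.03), lay not far above it. B cells use Cd180 and Ly86, and hepatocytes are the main source of Lbp. Of the T cell, neuron and endothelial or fibroblast lists, each with 4 genes, 1 gene each was above the limit in at least 1 group. These were Cd2 (3.64 in controls, 2.81 after LPS), Rbfox3 (3.42 and 3.51) and Pdgfrb (3.49 in both), and of the 3 oligodendrocyte markers with a row 0 were. The summed macrophage markers ran from 5327 to 5686 on the linear scale in the controls and from 4435 to 7234 in the LPS arrays. The summed B cell markers, none above the dim limit, ran from 22.1 to 24.1 in control arrays and from 20.9 to 21.5 after LPS. Signals this low do not show that B cells were present. The part of either cell type in the results was not tested. Control replicate 2 was lower than the other controls in brighter rows, by a median of 0.59 for rows within 1 log2 unit of the level of Cd14, and LPS replicate 3 stood apart from the other LPS arrays for some of the genes below.

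Of the 10 genes, 2 rose after LPS, Aoah and Cd14, 0 fell and 8 did not pass (limma, adjusted p under 0.05 over all 41345 rows). Over all rows, 0.193% were called higher and 0% lower. At an unadjusted p under 0.05 the count for the 10 genes was the same, 2 higher and 0 lower, where 4.98% of all rows were higher and 1.40% lower. Every LPS value lay above every control value for the same 2 genes, as it did for 7.74% of all rows, and for 0 of the 10 every LPS value lay below, as it did for 3.48%. Among the 10 changes 5 were above 0 and 5 below, with a median of 0.04, and the median over all rows was 0.03. The count was again 2 when control replicate 2 was dropped, alone or together with LPS replicate 3. It was 1, Aoah, without LPS replicate 1 or LPS replicate 3, and 0 without control replicate 1, control replicate 3 or LPS replicate 2. Calls over all rows, 80 with all arrays, numbered 15, 67 and 22 without control replicates 1, 2 and 3. They numbered 27, 17 and 82 without LPS replicates 1, 2 and 3. A call lost for 1 gene in these fits is to be read beside these counts. In RNA of whole cultures, a change in the number of cells that use a gene and a change in RNA per cell cannot be told apart.

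**Figure D1:**
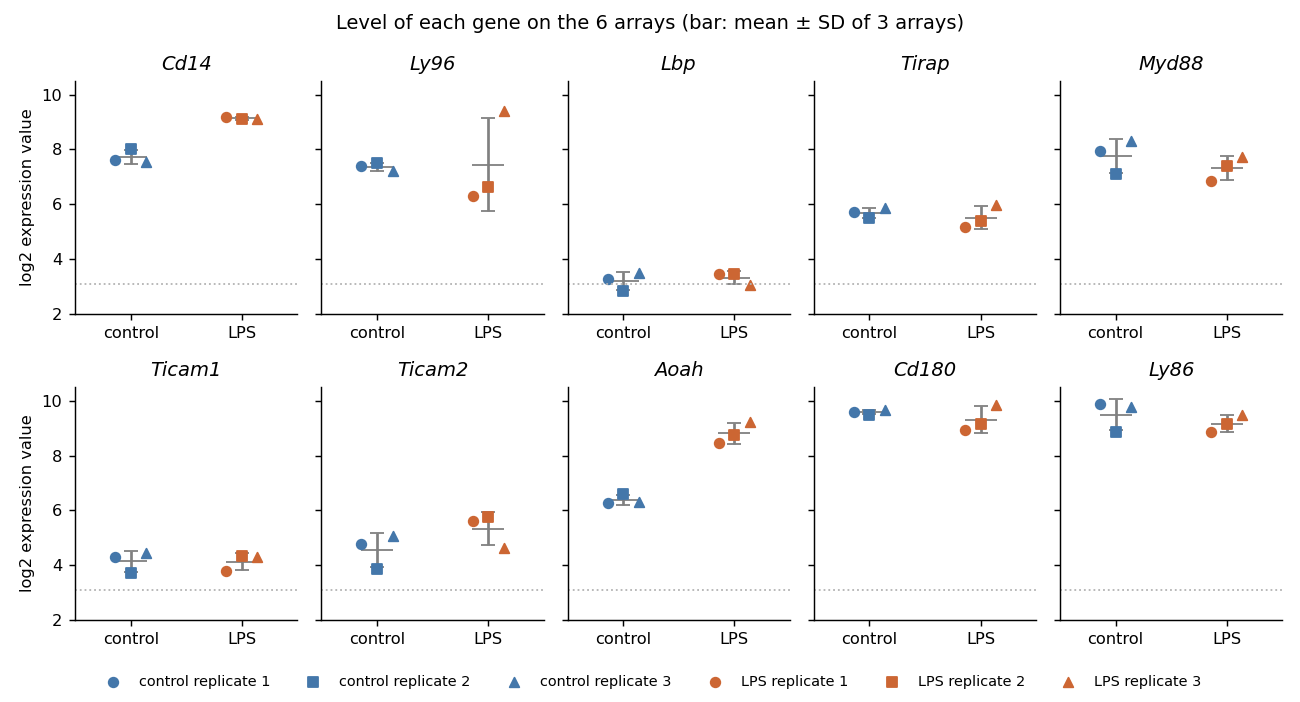
The log2 expression value (vertical axis) of each of the 10 genes in the 3 control and 3 LPS arrays, with the mean and SD of each group as a grey bar and the dim limit of 3.08 as a dotted line. The LPS points of Aoah and Cd14 lie wholly above the controls, and for Ly96 LPS replicate 3 lies at 9.40 while the other LPS arrays lie below the controls.

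Aoah, which codes for the enzyme that deacylates LPS, showed the largest change of the 10. Its log2 values were 6.27, 6.58 and 6.30 in control replicates 1 to 3 and 8.46, 8.75 and 9.22 in LPS replicates 1 to 3. The lowest LPS value was above the highest control value by more than the whole spread of either group, 0.31 in the controls and 0.76 after LPS. The mean went from 6.38 ± 0.17 to 8.81 ± 0.38 (SD, n = 3), a 5.38-fold rise with a 95% interval of 3.73 to 7.75. On the log2 scale the change was 2.43 (SE 0.22, limma adjusted p = 0.018). Each LPS array on its own was 2.08, 2.37 and 2.83 above the control mean. Without LPS replicate 3, the highest of them, the change was 2.22 (limma adjusted p = 0.028), and with control replicate 2 also left out it was 2.32 (limma adjusted p = 0.015). The call ended without control replicate 1, control replicate 3 or LPS replicate 2 (limma adjusted p = 0.15, 0.14 and 0.13), with changes of 2.37, 2.39 and 2.46. It also missed the threshold after quantile normalization, at a change of 2.22 (limma adjusted p = 0.0501).

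Over the 6 arrays, the rows most like Aoah by root mean square difference of centred values, among 11812 rows with 1 symbol above the dim limit in at least 1 group, were those of Slfn2, Gclm and Clec4e. Slfn2, a Schlafen family gene, differed by 0.13, and its values were 6.59, 6.61 and 6.38 in the controls and 8.80, 8.97 and 9.58 after LPS. Gclm, a subunit of the enzyme that starts glutathione synthesis, differed by 0.14. Clec4e, a C-type lectin receptor for mycobacterial glycolipid, differed by 0.19. In each of these 3 genes, as in Aoah, LPS replicate 3 held the highest value, which the way they were picked makes likely.

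Upstream sequence from RefSeq (GRCm38.p6) was searched for 6 of the genes, and that of Cd14, Ly96, Lbp and Ticam2 was not searched. It is shown for Aoah, the called gene among these 6, and for Myd88 and Ticam1, the 2 of the 6 whose window held a match to a motif. The windows end where the annotated gene begins, read 5′ to 3′ on the gene's strand, and capitals mark the matches. They lie at chr13:20793863-20794102 (plus strand) for Aoah, chr9:119340019-119340268 (minus strand) for Myd88 and chr17:56276768-56277017 (minus strand) for Ticam1.
Aoah: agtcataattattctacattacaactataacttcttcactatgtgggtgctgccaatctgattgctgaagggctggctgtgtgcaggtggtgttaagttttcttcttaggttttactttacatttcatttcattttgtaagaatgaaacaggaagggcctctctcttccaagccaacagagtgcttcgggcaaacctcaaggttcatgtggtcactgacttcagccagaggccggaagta
Myd88: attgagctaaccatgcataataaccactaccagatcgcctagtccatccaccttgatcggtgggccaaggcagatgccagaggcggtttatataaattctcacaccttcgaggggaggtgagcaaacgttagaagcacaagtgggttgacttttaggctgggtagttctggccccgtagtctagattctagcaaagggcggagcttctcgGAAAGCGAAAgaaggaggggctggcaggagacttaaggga
Ticam1: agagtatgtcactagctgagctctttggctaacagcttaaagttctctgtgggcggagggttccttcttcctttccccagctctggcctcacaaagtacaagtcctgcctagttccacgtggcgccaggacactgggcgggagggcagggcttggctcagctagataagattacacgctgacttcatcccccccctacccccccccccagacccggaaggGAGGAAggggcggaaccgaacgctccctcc
The motifs were an NF-kappaB consensus, the interferon-stimulated response element, a PU.1 core as GAGGAA and an AP-1 site as TGANTCA, each on both strands. The response element match in Myd88 begins 40 bases before the gene, and 2.98% of 32851 promoter windows of 250 bases held one. The PU.1 core match in Ticam1 begins 30 bases before the gene, and 23.3% of windows held one. Shares for the NF-kappaB and AP-1 motifs were 3.90% and 6.75%, and the windows of Aoah, Tirap, Cd180 and Ly86 held no match to any of the 4. A match is a description of letters, and no match says only that these letters are not in the window.

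Among the genes that recognise LPS, the co-receptor gene Cd14 rose. Its log2 values were 7.61, 8.02 and 7.53 in control replicates 1 to 3 and 9.18, 9.11 and 9.11 in LPS replicates 1 to 3. The 3 LPS arrays lay within 0.07 of each other, the tightest of the 10 genes, and control replicate 2 was the highest control, although rows of this level had a median 0.59 lower in that array. The mean went from 7.72 ± 0.26 to 9.13 ± 0.04 (SD, n = 3), a 2.66-fold rise with a 95% interval of 2.01 to 3.52. On the log2 scale the change was 1.41 (SE 0.17, limma adjusted p = 0.046). Without control replicate 2 the change was 1.56 (limma adjusted p = 0.032), and with LPS replicate 3 also left out it was 1.58 (limma adjusted p = 0.034). Leaving out any other array ended the call, with changes from 1.32 without control replicate 3 to 1.43 without LPS replicate 3 and limma adjusted p-values from 0.11 without LPS replicate 3 to 0.29 without control replicate 1. Quantile normalization (1.22, limma adjusted p = 0.33), median centring (1.41, limma adjusted p = 0.052) and an intensity trend with robust estimation (1.41, limma adjusted p = 0.097) ended it too.

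Ly96, which codes for the lipid A-binding partner of Toll-like receptor 4, split the LPS arrays. Its log2 values were 7.39, 7.50 and 7.20 in control replicates 1 to 3, and 6.31, 6.64 and 9.40 in LPS replicates 1 to 3. LPS replicates 1 and 2 lay below every control, by 1.05 and 0.72 from the control mean, and LPS replicate 3 lay 2.04 above it. The controls agreed within 0.30, while the LPS arrays spanned 3.09. The group means, 7.36 ± 0.15 and 7.45 ± 1.70 (SD, n = 3), lay close together, and the log2 change was 0.09 (SE 0.77, limma adjusted p = 1.00), with a 95% interval from -1.74 to 1.92. Without LPS replicate 3 it was -0.89 (limma adjusted p = 0.27), and with control replicate 2 also left out -0.82 (limma adjusted p = 0.20). Its sign thus turned without that array, and neither value passed. With all arrays kept, the change was also below 0 after quantile normalization (-0.08) and with array weights (-0.16). Without LPS replicate 1 it was 0.66 and without LPS replicate 2 it was 0.49.

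LPS replicate 3 exceeded the mean of the other LPS arrays by 2.93 at Ly96, or 7.61-fold, where rows within 1 log2 unit of its level had a median of 0.06. Only 8 of the 23521 rows with 1 symbol, Ly96 among them, had an excess that large. Its 7 companions, picked out with the values in view, were the interferon-inducible genes Ifi205 (4.31) and Ifi209 (3.32), the matrix metalloproteinase genes Mmp12 (3.64) and Mmp13 (3.02), the C-type lectin gene Clec4n (3.14), Apol9b (2.97) and the small heat shock protein gene Hspb7 (2.94). Over the 10 genes the excess of LPS replicate 3 had a median of 0.53, against a median of 0.13 over rows above the dim limit. This excess was above 0 for 7 of the 10, where 55.6% of rows with 1 symbol were at or above -0.04. It was 0.61 for Aoah, 0.82 for Cd180, 0.71 for Tirap, 0.59 for Myd88 and 0.47 for Ly86. It was -0.04 for Cd14 and -1.04 for Ticam2. For Tlr4, the receptor that binds the product of Ly96, it was 0.12. What set this array apart was not tested.

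**Figure D2:**
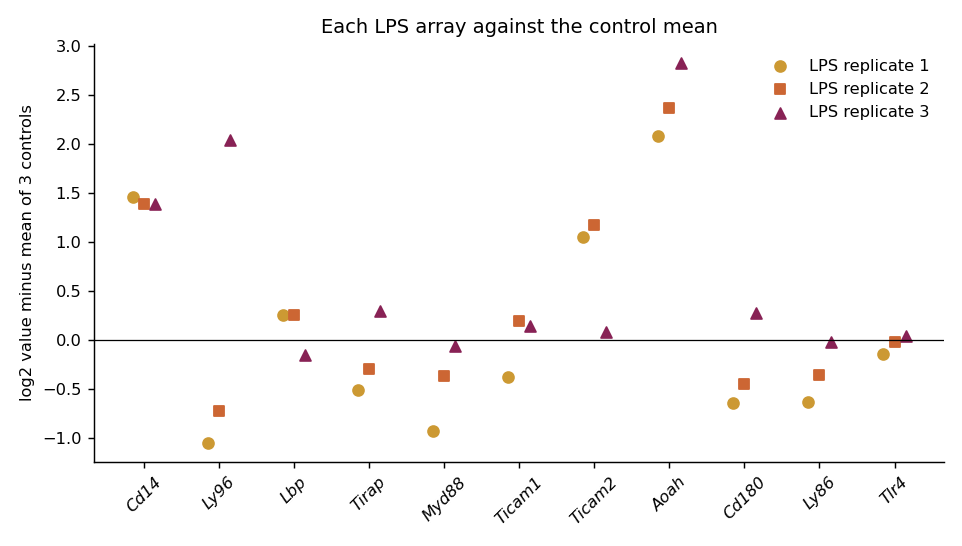
The log2 value of each LPS array minus the mean of the 3 controls (vertical axis) for the 10 genes and Tlr4, with a marker for each LPS replicate. All 3 LPS arrays of Cd14 lie between 1.39 and 1.46, whereas those of Ly96 run from -1.05 to 2.04 and those of Ticam2 from 0.08 to 1.18.

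Lbp, which codes for the serum protein that extracts LPS and is made mainly by liver, lay near the dim limit on every array, with log2 values of 3.27, 2.82 and 3.49 in control replicates 1 to 3 and 3.45, 3.45 and 3.04 in LPS replicates 1 to 3. In each group 1 array was below the limit of 3.08, control replicate 2 and LPS replicate 3, and the groups overlapped. The log2 change was 0.12 (SE 0.22, limma adjusted p = 1.00), with a 95% interval from -0.41 to 0.65, and it was -0.07 without control replicate 2. At a signal this low a difference may not be detectable.

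None of the 4 adaptor genes passed, and their intervals differed in width. Ticam2, whose product bridges the receptor and TRIF, had the largest change of the 4. It had log2 values of 4.76, 3.85 and 5.06 in control replicates 1 to 3 and 5.61, 5.74 and 4.64 in LPS replicates 1 to 3. LPS replicates 1 and 2 lay above every control, and LPS replicate 3 lay below control replicates 1 and 3. The log2 change was 0.77 (SE 0.41, limma adjusted p = 0.90), and its 95% interval of 0.874 to 3.34-fold included no change. It was 1.12 without LPS replicate 3 (limma adjusted p = 0.54), 0.42 without control replicate 2 (limma adjusted p = 0.84) and 0.77 without both (limma adjusted p = 0.21). The neighbouring gene Tmed7, whose product carries Toll-like receptor 4 out of the endoplasmic reticulum, had a log2 change of 0.34 (limma adjusted p = 0.72).

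Myd88, which codes for the adaptor shared by most Toll-like receptors and the interleukin 1 receptors, had the lowest change of the 10. The arrays gave log2 values of 7.94, 7.09 and 8.30 in control replicates 1 to 3 and 6.85, 7.41 and 7.71 in LPS replicates 1 to 3. Control replicate 2 fell among the LPS arrays and the other controls lay above all of them. The log2 change was -0.45 (SE 0.36, limma adjusted p = 0.98), with a 95% interval from -1.31 to 0.40. It was -0.80 without control replicate 2 (limma adjusted p = 0.48) and -0.99 without that array and LPS replicate 3 (limma adjusted p = 0.23), while it shrank to -0.19 without control replicate 3 and -0.22 without LPS replicate 1 (limma adjusted p = 1.00 and 0.99). Single arrays thus moved it by over 1.5 times either way, and it passed in none of these fits. The rows most like it over the 6 arrays were 2 rows of Syne1, a nuclear envelope gene, which differed by 0.07 and 0.072. The next, that of Ss18l2, differed by 0.10. In these rows control replicate 2 was also below the other controls, which the way they were picked makes likely.

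Tirap, whose product sorts MyD88 to the membrane, had log2 values of 5.70, 5.49 and 5.86 in control replicates 1 to 3 and 5.17, 5.38 and 5.98 in LPS replicates 1 to 3. LPS replicates 1 and 2 lay below every control and LPS replicate 3 above every control, the same order as at Ly96 but over a narrower range of 0.81. Its log2 change was -0.17 (SE 0.24, limma adjusted p = 1.00), and ran from -0.41 without LPS replicate 3 (limma adjusted p = 0.72) to -0.09 without control replicate 3 and -0.00 without LPS replicate 1. Ticam1, which codes for TRIF, had log2 values of 4.30, 3.71 and 4.43 in the controls and 3.77, 4.34 and 4.28 on the LPS arrays. The groups overlapped throughout, and the log2 change was -0.02 (SE 0.25, limma adjusted p = 1.00), with a 95% interval from -0.61 to 0.58. Its sign turned without control replicate 1, control replicate 3 or LPS replicate 1, to 0.06, 0.12 and 0.16.

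The CD180 complex did not pass either. Cd180 had log2 values of 9.61, 9.50 and 9.65 in control replicates 1 to 3 and 8.95, 9.14 and 9.86 in LPS replicates 1 to 3. The controls lay within 0.15, and again LPS replicates 1 and 2 were below and LPS replicate 3 above all of them. The log2 change was -0.27 (SE 0.25, limma adjusted p = 1.00), with a 95% interval from -0.86 to 0.32, and -0.54 without LPS replicate 3 (limma adjusted p = 0.46). Ly86, whose product MD1 is needed for CD180 at the surface, had log2 values of 9.87, 8.86 and 9.77 in the controls and 8.87, 9.14 and 9.48 on the LPS arrays. Here control replicate 2 was the array that stood apart, 0.96 below the mean of the other controls, while the other controls lay above every LPS array. The log2 change was -0.33 (SE 0.31, limma adjusted p = 1.00), and it was -0.66 without control replicate 2 (limma adjusted p = 0.43) and -0.81 without LPS replicate 3 as well (limma adjusted p = 0.18). Other arrays moved both values the other way: Cd180 was at -0.09 without LPS replicate 1, and Ly86 at -0.15 without control replicate 1, -0.20 when control replicate 3 was left out and -0.19 when LPS replicate 1 was. Neither gene passed in any of these fits.

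**Figure D3:**
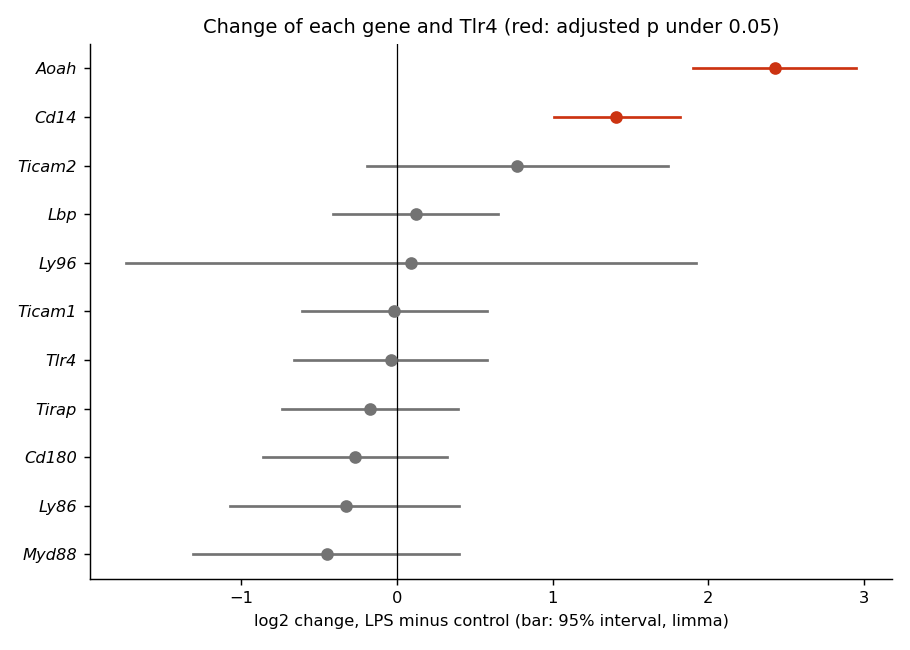
The log2 change from control to LPS (horizontal axis) of the 10 genes and Tlr4, with the 95% interval of the limma fit as a bar. The intervals of Aoah and Cd14 lie wholly above 0, from 1.90 to 2.95 and from 1.01 to 1.82, and that of Ly96 is the widest, from -1.74 to 1.92.

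Partner genes were also compared within each array, for 4 pairs whose products act together. This removes a shift that is equal over all rows of an array, but not one that differs with level. Control replicate 2 had a median of -0.31 against the other controls for rows near the level of Tirap, and -0.55 near that of Myd88. With 3 against 3 arrays a two-sided exact permutation test cannot give a p below 0.1. Ticam2 minus Ticam1 was 0.46, 0.14 and 0.63 in control replicates 1 to 3 and 1.84, 1.40 and 0.35 in LPS replicates 1 to 3. The mean difference was higher by 0.79 after LPS (exact permutation p = 0.30, 0.80 adjusted over the 4 pairs), with LPS replicate 3 among the controls. Ly96 minus Tlr4 was 0.89, 1.89 and 0.72 in the controls and 0.25, 0.46 and 3.17 on the LPS arrays, so LPS replicates 1 and 2 were the lowest of the 6 and LPS replicate 3 the highest. Its mean difference was 0.13 higher after LPS (exact permutation p = 1.00), and -0.81 without LPS replicate 3. Tirap minus Myd88 was 0.28 higher (exact permutation p = 0.40, adjusted 0.80) and Ly86 minus Cd180 was -0.06 (exact permutation p = 0.90, adjusted 1.00). Without control replicate 2 these 2 were 0.53 and -0.34, and without LPS replicate 3 Ticam2 minus Ticam1 was 1.21. As the genes have different probes, the sign of such a difference on an array has no meaning, and only its change between groups was compared.

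**Figure D4:**
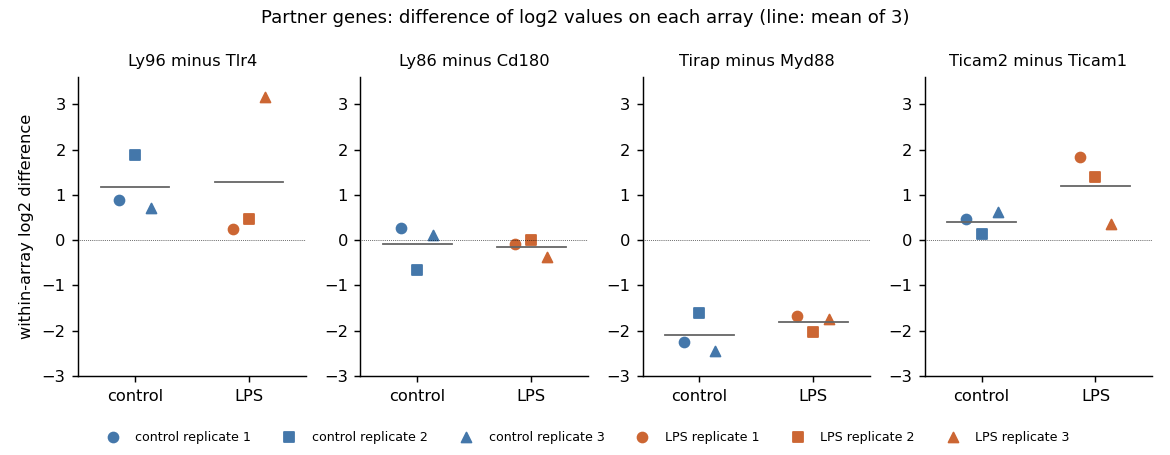
The within-array difference of log2 values (vertical axis) for 4 partner pairs in each control and LPS array, with the mean of each group as a line. The pair of Ly96 and Tlr4 shows LPS replicate 3 at 3.17 with the other LPS arrays at 0.25 and 0.46, and the pair of Ticam2 and Ticam1 shows LPS replicates 1 and 2 above all controls.

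Genes that act beside or after these 10 were read from the same fit. In the MyD88 arm, the kinases, ligases and adaptors that follow MyD88, 16 of 18 genes had a row, of which 1 rose, 0 fell and 15 did not pass, with a median of 0.25. At an unadjusted p under 0.05, 5 of the 16 were higher and 0 lower. Over all rows these shares were 0.193% called higher and 4.98% higher unadjusted, here and for the lists below. The gene that rose was Irak3, which codes for a kinase-like inhibitor of the MyD88 complex. Control replicates 1 to 3 had log2 values of 4.68, 4.16 and 4.92 and LPS replicates 1 to 3 had 7.12, 7.58 and 6.63, a change of 2.52 (SE 0.30, limma adjusted p = 0.044). Its call ended without any single array other than LPS replicate 3 and after quantile normalization. In the TRIF arm 11 of 13 genes had a row, of which 1 rose, 0 fell and 10 did not pass, with a median of 0.34, and 5 were higher and 0 lower at an unadjusted p under 0.05. Ikbke, an interferon-inducing kinase related to Tbk1, rose by 2.17 (SE 0.22, limma adjusted p = 0.030), a call that ended without any single array other than control replicate 2. Irak4, Chuk, Traf3 and Ripk1 were not analysed here.

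The list for Toll-like receptor 4, folding and traffic had 11 genes. Its members Unc93b1 (log2 change 0.12) and Tram1 (-0.24) are not established parts of this receptor's folding or traffic. Tram1 does not code for TRAM, the product of Ticam2. Both are counted in the figures that follow. Of the 11 genes, 0 passed in limma, 1 was higher and 0 were lower at an unadjusted p under 0.05, and the median was 0.03. Those with the lowest p were Rab10, a GTPase that moves the receptor to the surface, at 0.60 (limma adjusted p = 0.66) and Cnpy4 at 0.30 (limma adjusted p = 0.91). The receptor gene Tlr4 itself had log2 values of 6.50, 5.60 and 6.48 in the controls and 6.06, 6.17 and 6.24 on the LPS arrays, and control replicate 2 lay below the other 5 arrays. Its change was -0.04 with all arrays and -0.34 without control replicate 2 (limma adjusted p = 0.59). Of 14 genes for other ways of binding or handling LPS, Tlr4 again among them, 0 passed in limma, with 1 higher and 2 lower at an unadjusted p under 0.05 and a median of -0.06. Casp4, the cytosolic receptor for LPS, went from 5.78 ± 0.35 to 7.88 ± 0.39 (SD, n = 3), a change of 2.10 that just missed the threshold (limma adjusted p = 0.056), with every LPS array above every control. Apoe, an apolipoprotein gene, had a change of -0.60 (limma adjusted p = 0.70). The 6 response genes were chosen with earlier results of these data known, so they give no independent check that the cultures responded. Of these, 5 rose, Acod1 by 6.60, Il1b by 5.43, Cxcl10 by 4.14, Tnf by 2.71 and Nfkbia by 2.57. The sixth, Ifnb1, which codes for interferon beta, lay below the dim limit in both groups.

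**Figure D5:**
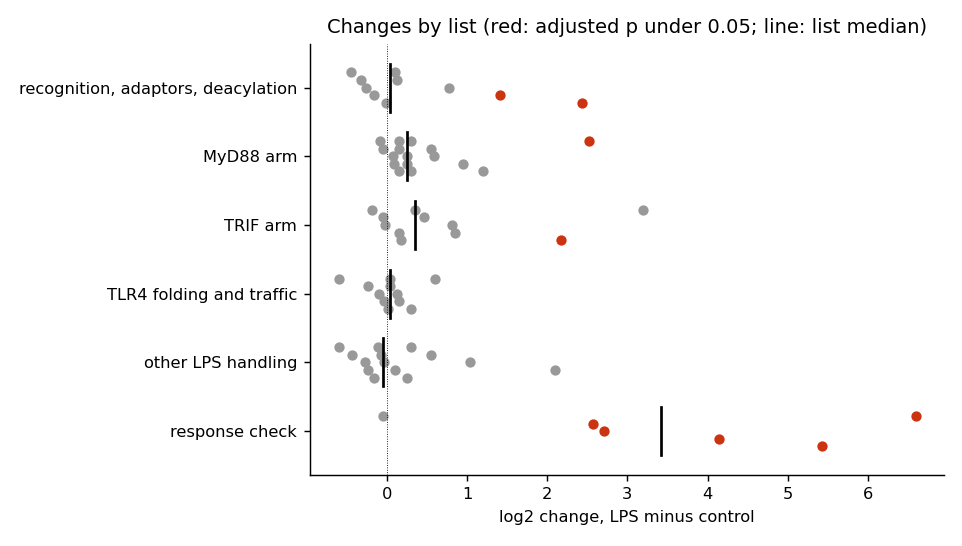
The log2 change from control to LPS (horizontal axis) of each gene in the 10 genes described and in 5 lists of related genes, with red points for limma adjusted p under 0.05 and a line at each list's median. The median of the 10 genes, 0.04, lies near 0 with 2 red points above it, and the response genes have a median of 3.43.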

How the data were processed

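Affymetrix whole-transcript arrays measured RNA of BV-2 cells, 3 control and 3 LPS. The authors deposited log2 expression values per row, and per the submitters' processing notes the program was Affymetrix Expression Console. Its version, background correction, normalization and genome build are not given in the sources used here, so folds from low signals may be biased. The number of arrays limits the precision.

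Rows were named from the platform's probe annotation: of 41345 rows 23521 had 1 symbol, 1814 several (not used to name a gene) and 16010 none. An older name was accepted only where the row's gene identifier was that of the gene sought. For genes with several rows the row with the highest mean was used; the 10 genes had 1 row each, so no other row could be tried. LPS was compared with control with limma 3.58.1 in R 4.3.3 (lmFit, eBayes), with no filter, no covariate and Benjamini-Hochberg adjustment over all rows, and calls were made at adjusted p under 0.05. Errors are moderated SE for changes and SD for groups. Partner pairs used a two-sided exact permutation test. On simulated data for this comparison, with 41345 rows, the fit was tested: of 50 rows changed at each log2 size, 32% were called at 1 and 72% at 2, with 8 false calls in all. The noise was drawn separately for each row and array, without shifts shared by the rows of an array. The changed rows were drawn from all rows, of which 21380 were dim. These figures thus need not hold for the 10 genes.

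The 10 genes, the lists and the alternatives were chosen with earlier results of these data known. Named genes beyond the 10 were called members of each list or, with none called, the 2 with the lowest p, and the 3 rows most like the genes with the largest rise and fall; exceptions are stated. Alternatives were other normalizations, row filters, variance models, array weights, a replicate block and leaving out arrays. Upstream sequences came from RefSeq, GRCm38.p6, and those of 6 of the 10 genes were searched.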

Additional observations from a re-analysis of the deposited data

How the results depend on the processing

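No alternative called any of the 8 other genes among the 10, while Aoah was called in 10 of 16 alternatives and Cd14 in 6 of 16; their changes ran from 2.22 to 2.60 and from 1.22 to 1.58. Genes called among the 10 numbered 1 with median centring or an intensity trend (Aoah, with Cd14 at 1.41 in both) and 0 with quantile normalization (Aoah 2.22, Cd14 1.22), the unmoderated fit (2.43 and 1.41; adjusted p = 0.30 and 0.35 without limma's moderation) and the replicate block (2.43 and 1.41; limma adjusted p = 0.18 and 0.30). Leaving out 1 array gave 0 to 2 of the 10, with Aoah from 2.22 to 2.60 and Cd14 from 1.32 to 1.56. Ly96 turned sign with quantile normalization (-0.08), array weights (-0.16) and without the pair of control replicate 2 and LPS replicate 3 (-0.82, an alternative added with the data in view), and ran from -0.89 to 0.66 with 1 array left out. With 1 array left out Lbp ran from -0.07 to 0.27 and Ticam1 from -0.23 to 0.16, and Tirap, Myd88, Cd180 and Ly86 each moved by over 1.5 times without turning sign.

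Rows called numbered 132 with array weights, 7 with the replicate block, 1 in the unmoderated fit, 219 (67 of them lower) without that pair, and from 15 to 82 with 1 array left out, where 14 were lower without control replicate 2 and 6 without LPS replicate 3. With named rows only, 1 row per gene, no dim rows or without that pair, 2 TRIF arm genes were called, Ikbke and Irf7. Casp4 was the 1 gene of the other LPS handling list called in these 4 settings and with array weights, median centring or quantile normalization. MyD88 arm calls fell to 0 with quantile normalization, the block and the unmoderated fit, and TRIF arm calls to 0 with the latter 2, where response genes called numbered 1 and 0. With 1 array left out each arm had 0 to 1 call and the response genes 3 to 5. Without LPS replicate 3 the 1 TRIF arm call was Irf7, not Ikbke. Each partner pair moved by less than the SD pooled over both groups of that pair (0.34 to 1.23), though some moved by more than the SD of 1 group.

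Deviations from the group means of same-numbered arrays had correlations over all rows of 0.07, -0.26 and -0.22. Control replicate 2 correlated best with LPS replicate 3 (0.27). With 3 arrays per group these correlations depend on each other, so they cannot show whether the replicates were run in pairs. The replicate block, which uses the replicate number and leaves fewer degrees of freedom, called 7 rows. Why calls were lost under it was not tested. Lbp, near the dim limit of 3.08, is the gene that signal over background limits most.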

Other observations

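Irf7, the transcription factor that amplifies type I interferon genes downstream of TRIF, had the highest change of the TRIF arm and was named after its values were seen. Its log2 values were 5.21, 4.39 and 4.86 in control replicates 1 to 3 and 7.59, 7.44 and 9.04 in LPS replicates 1 to 3. Every LPS array lay above every control, and LPS replicate 3 was the highest, as it was for Ly96. The change of 3.20 (SE 0.45) did not pass over all rows (limma adjusted p = 0.088), but without LPS replicate 3 it was 2.70 and passed (limma adjusted p = 0.044). Without control replicate 2 it was 2.99 (limma adjusted p = 0.14), and without both 2.48 (limma adjusted p = 0.015).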
